A study of Mus musculus with 14 samples.

Results

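Skeletal muscle of mice that overexpressed c-Myc in endothelial cells (EC-Myc OE) was compared with that of CT littermates, with both genotypes on control diet (CTD). Libraries were chosen by the genotype and diet in their labels, which gave 7 of the 14 libraries of the series, 4 of EC-Myc OE (OE-CTD 1 to 4) and 3 of CT (CT-CTD 1 to 3). Whether the libraries labelled OE-CTD are those of EC-Myc OE on control diet is in doubt, as the study's own analysis used them as CT on western diet, and each difference given here is between libraries so labelled. By these labels, muscle of EC-Myc OE had more mRNA of 6 of 16 tested basement membrane genes (2 without CT-CTD 3), beside 1.18% of all genes tested. That list, like the others, was chosen with earlier results of these data known. Also higher were the microfibril gene Fbn1 and the clock repressor Nr1d1. Fbn1 was at 3.56-fold, Col4a2 at 1.86-fold and Nr1d1 at 2.58-fold the level of CT. Muscle of EC-Myc OE had less mRNA of Odc1, the rate-limiting enzyme of polyamine synthesis, which was 2.83-fold lower. Also lower were the mitochondrial carrier Ucp3, by 2.61-fold, and the glucocorticoid-induced repressor Zbtb16, by 2.03-fold. Summed markers of fibroblasts, tendon and endothelium, and some other lists such as Notch, were higher in every OE-CTD library than in any CT-CTD library. The part of fibroblast and tendon content in the matrix genes was not tested. Mouse Myc itself and the gene lists for ribosome biogenesis and translation held no gene altered over 1.5-fold by edgeR.

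All mice were male and of the FVB/N strain. EC-Myc OE mice carried a human c-Myc transgene under a tetracycline-responsive promoter (Tet-O-Myc), located on the Y chromosome, together with a transactivator (tTA) expressed from the Cdh5 promoter, which is active in endothelium. CT mice carried Tet-O-Myc without tTA, so that both genotypes had the transgene and both had been given doxycycline, which keeps it silent. The transgene was switched on by withdrawal of doxycycline at 4 to 6 weeks of age, and the mice were then kept on control diet, for 20 weeks by the labels, whereas the study's account of the muscle RNA-seq gives another duration for the western diet. The model therefore acts through endothelial cells only as far as the Cdh5 promoter does, the controls lacked tTA as well as the active transgene, and the effects of tTA and of c-Myc cannot be told apart. RNA came from soleus, a slow postural muscle, and gastrocnemius, a mostly fast muscle, by the study's methods, and the labels name only skeletal muscle. Poly-T beads selected mRNA, and the RNA was that of whole muscle with all its cell types. In the study, c-Myc gain and loss in endothelium were examined for their effects on body weight, vessels and metabolism, and the muscle RNA-seq asked how gene expression changed with genotype and diet.

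c-Myc is a transcription factor that pairs with Max, binds E-box sequences and is best known for driving ribosome biogenesis, metabolism and cell division. Endothelial cells line the vessels of muscle, where they control the delivery of oxygen, glucose, fatty acids and hormones to the fibres, lay down basement membrane and release signals to neighbouring cells. Fibroblasts of the muscle sheaths make most of the fibrillar matrix, and macrophages and tendon cells add to the same pool of RNA.

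The deposited table listed counts for 54532 genes, and the summed counts per library were 24807368, 24101226 and 25054855 in CT-CTD 1 to 3 and 25486678, 28519159, 22966288 and 22083340 in OE-CTD 1 to 4. Levels are given as CPM, counts relative to the TMM-scaled library total. Levels of different genes are compared only as the authors' FPKM, which also divide by gene length. OE-CTD 4 stood apart from the other EC-Myc OE libraries. It had 14.9% of its counts on mitochondrial genes, against 11.3% to 12.8% in the other 3, and 29.2% on its 10 most abundant genes, against 24.4% to 25.4%. Its TMM factor was 0.888, against 1.02 to 1.06. On a principal component analysis of the 7 libraries, the first component held 33.8% of the variance and put CT-CTD 2 and 3 (37.64 and 36.88) opposite OE-CTD 1 to 3 (-21.07, -28.11 and -34.31), with CT-CTD 1 (-1.54) and OE-CTD 4 (10.51) between them. The second component, 21.9% of the variance, ran from OE-CTD 4 (-47.73) to CT-CTD 1 (31.43). By the descriptions in the labels, OE-CTD 1, 2 and 3 share a number and OE-CTD 4 has another, and what the number marks was not given. The 3 pairs among OE-CTD 1 to 3 were the closest, with a chi-square per degree of freedom of 7.81 to 10.6 against sampling noise, whereas the other pairs within a group had 16.8 to 43.0. Nothing in the labels says that each library came from its own animal, so that p-values measure only the spread between these libraries.

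In the study's legend the group sizes differ by diet, whereas in the labels they differ by genotype. Labels name 3 libraries of CT and 4 of EC-Myc OE on either diet. The labels were kept. With the names of OE-CTD and CT on western diet exchanged, 0 genes were altered by edgeR's quasi-likelihood test with Benjamini-Hochberg adjustment and 471 at an unadjusted p under 0.05 and over 1.5-fold. Signs also depended on the names, as Nr1d1 was then at -0.27, Ucp3 at 0.37, Zbtb16 at 0.74 and Rabif at 0.10, opposite to their direction under the labels. Others came closer to 0, with Fbn1 at 0.60, Col4a2 at 0.11, Odc1 at -0.20, Syne1 at -0.04 and Spns2 at -0.11. By DESeq2 on 2 groups alone, OE-WD relative to the libraries labelled CT-WD was at -0.53 for Zbtb16, 0.16 for Acsl3, -0.21 for Rabif, -0.54 for Rrad, 5.18 for S100a3, 0.93 for S100a14, 0.53 for Wnt10a, -0.87 for Socs3, -1.03 for Foxo1 and -0.73 for Angptl4. Relative to the libraries labelled OE-CTD, it was at 1.23, 0.64, 1.03, -0.65, 2.79, 1.37, 1.98, -1.10, 0.12 and 0.04 in turn. The study gives values for the first genes of this row, Zbtb16 to Wnt10a, between OE-WD and CT-WD, and the libraries labelled OE-CTD return them when taken as CT-WD. It gives one for Socs3 in the response of EC-Myc OE to western diet, and the libraries labelled CT-WD return it when taken as OE-CTD. For Foxo1 and Angptl4 it gives no value, only that both were lower in EC-Myc OE muscle, without naming the comparison. The study's analysis thus used the exchanged names, which its group sizes by diet also fit. If those names are the right ones, the comparison made here is one of diet within CT and not of genotype. Whether the labels or the study's analysis name the animals rightly is not shown by the files used here.

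Markers of muscle, vessels and most other cell types it holds were found in all libraries. The most abundant fast fibre gene was Tnnt3 (10253 FPKM, mean of the 7 libraries), the most abundant slow fibre gene was Myl3 (406 FPKM), and Cdh5, which encodes VE-cadherin and whose promoter drives tTA, led the endothelial list (22.6 FPKM). Of the fast fibre list, Tnnc2 was nearly absent, and its counts overlap in position with those of Ube2c. The neutrophil markers Mpo, Camp and Ly6g had 0 counts in all 7 libraries, and only Csf3r of that list had enough counts to be tested. Mouse Myc was at 4.59, 6.11 and 4.45 CPM over CT-CTD 1 to 3 against 6.63, 5.87, 6.84 and 3.06 CPM over OE-CTD 1 to 4, and the groups overlapped (log2 fold change 0.16 ± 0.315 (SE), edgeR adjusted p = 0.863). Counts on the human transgene were not analysed here, so that the level of the transgene's mRNA in the 4 OE-CTD libraries was not measured. More cells of a type and more RNA per cell cannot be told apart.

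Of 15458 genes tested, 295 (1.91%) were altered, which here means a fold change over 1.5 at an adjusted p under 0.05 by edgeR's quasi-likelihood test with Benjamini-Hochberg adjustment. Of these, 183 (1.18%) were higher and 112 (0.725%) lower in OE-CTD. At an unadjusted p under 0.05, 1101 genes (7.12%) were altered over 1.5-fold, 764 (4.94%) higher and 337 (2.18%) lower. The median log2 fold change over all genes tested was 0.00, with 5% of the genes below -0.56 and 5% above 0.80. Of the altered genes, 292 had libraries that did not overlap between the groups, as had 15.5% of all genes tested, and 272 were protein coding. The smallest adjusted p was 0.000575, for Syne1, which encodes nesprin-1, the protein that ties nuclei to the cytoskeleton of the fibre. Higher genes made up 62.0% of the 295, but 50.3% of the 157 genes altered when libraries were scaled by their totals only (79 higher and 78 lower).

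The number of altered genes depended on single libraries. It was 272, 99 and 64 without CT-CTD 1, 2 and 3, and 170, 102, 102 and 309 without OE-CTD 1, 2, 3 and 4. Higher genes were then the minority without CT-CTD 1 (128 higher and 144 lower), CT-CTD 2 (46 and 53), CT-CTD 3 (29 and 35) and OE-CTD 3 (49 and 53). In all 7 of these fits 42 of the 295 genes were altered, 16 higher and 26 lower. Of these, 34 were also altered by DESeq2 and limma and under every other setting that kept the group names, among them Syne1, Spns2, Odc1, Ucp3, Mstn, Nr1d1, Zbtb16, Timp4, Anxa5, Fbn1, Axl, Tm4sf1, Col4a2 and Esrrb. Of the 92 altered genes named below, 92 were altered by DESeq2, 80 with the replicate block, 58 with library totals only, 49 by limma and 0 by edgeR with the names exchanged. Below, a gene that was not altered without 1 library is called lost without it, with the log2 fold change of that fit in parentheses. List counts by edgeR, DESeq2 or limma are those of the main edgeR fit, DESeq2 and limma on log2(FPKM + 1). Some lists with 0 by these held a gene altered in another of the 16 settings that kept the group names.

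**Figure D1:**
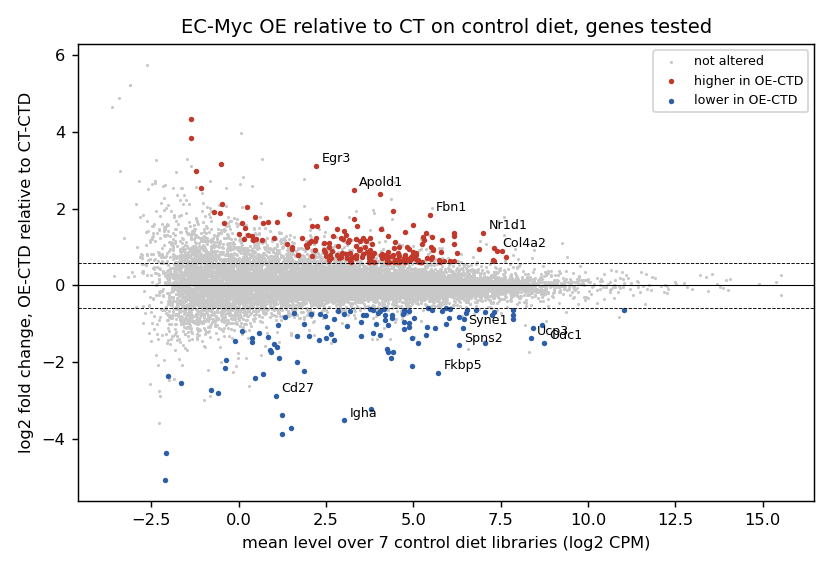
Log2 fold change of OE-CTD relative to CT-CTD against the mean level over the 7 libraries (log2 CPM) for the 15458 genes tested, with the 183 higher genes in red, the 112 lower genes in blue and the others in gray. Dashed lines mark a fold change of 1.5, and many genes of low level above the upper line were not altered.

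Among the altered genes that averaged 1 CPM or more and whose libraries were separated by group, the 12 with the largest rise were Egr3, Apold1, Bcl6b, Myo1f, Mybph, Lgr6, Fbn1, Stc1, BC048679, Mfap4, Glipr2 and Duox1. Egr3, an immediate early transcription factor induced by contraction and growth factors, was at 1.66, 0.335 and 0.596 CPM over CT-CTD 1 to 3 against 6.59, 11.4, 8.33 and 3.78 CPM over OE-CTD 1 to 4 (log2 fold change 3.11 ± 0.593 (SE), edgeR adjusted p = 0.0137). OE-CTD 4 was the lowest of its group, and the separation of the groups follows from the condition for naming a gene here. Apold1, an immediate early gene of endothelial cells, was at 4.75, 1.84 and 1.47 CPM over CT-CTD 1 to 3 against 9.32, 11.9, 24.0 and 15.1 CPM over OE-CTD 1 to 4 (log2 fold change 2.48 ± 0.489 (SE), edgeR adjusted p = 0.0163). Bcl6b, a repressor found in endothelium, was at 7.32, 5.10 and 2.26 CPM over CT-CTD 1 to 3 against 10.7, 22.4, 42.3 and 26.0 CPM over OE-CTD 1 to 4 (log2 fold change 2.37 ± 0.538 (SE), edgeR adjusted p = 0.0317). These 3 genes did not hold without every library, with Egr3 lost without CT-CTD 2 (2.74) or CT-CTD 3 (2.90), Apold1 without CT-CTD 2 (2.27), CT-CTD 3 (2.18) or OE-CTD 3 (2.16) and Bcl6b without CT-CTD 2 (2.40), CT-CTD 3 (2.02), OE-CTD 2 (2.42) or OE-CTD 3 (2.0). Without CT-CTD 1, Egr3 was at 3.99 and Apold1 at 3.18. Fbn1, which encodes fibrillin-1, the backbone of extracellular microfibrils, was at 21.4, 16.3 and 16.6 CPM over CT-CTD 1 to 3 against 58.1, 71.6, 62.4 and 65.6 CPM over OE-CTD 1 to 4 (log2 fold change 1.83 ± 0.265 (SE), edgeR adjusted p = 0.00575). With 1 library left out, its log2 fold change was 1.77 to 1.96. Mfap4, another microfibril protein, was at 4.29 ± 0.793 CPM (SD, n = 3) in CT-CTD and 14.1 ± 3.32 CPM (SD, n = 4) in OE-CTD (log2 fold change 1.72 ± 0.433 (SE), edgeR adjusted p = 0.0466), lost without CT-CTD 1 (1.87), CT-CTD 2 (1.698), CT-CTD 3 (1.61), OE-CTD 1 (1.71), OE-CTD 2 (1.62) or OE-CTD 3 (1.67), and it overlaps in position with Mapk7.

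Lgr6, a receptor for R-spondins, was at 1.06 ± 0.104 CPM (SD, n = 3) in CT-CTD and 3.89 ± 1.604 CPM (SD, n = 4) in OE-CTD (log2 fold change 1.86 ± 0.292 (SE), edgeR adjusted p = 0.00617). Lgr6 was altered without each library in turn. BC048679 was too (log2 fold change 1.74 ± 0.235 (SE), edgeR adjusted p = 0.00417). Mybph, a myosin-binding protein of fast and regenerating fibres, was at 9.69, 6.74 and 7.74 CPM over CT-CTD 1 to 3 against 14.7, 24.4, 50.3 and 34.7 CPM over OE-CTD 1 to 4 (log2 fold change 1.94 ± 0.410 (SE), edgeR adjusted p = 0.0238). Mybph was lost without CT-CTD 2 (1.83), CT-CTD 3 (1.91) or OE-CTD 3 (1.601). Myo1f, an unconventional myosin of leukocytes, had a log2 fold change of 2.03, Stc1 1.78, Glipr2 1.66 and Duox1, a dual oxidase, 1.64. Myo1f was lost without CT-CTD 1 (2.21), CT-CTD 2 (2.18), CT-CTD 3 (1.75), OE-CTD 2 (1.98) or OE-CTD 3 (1.75). Stc1 was lost without CT-CTD 1 (1.81), CT-CTD 2 (1.71), CT-CTD 3 (1.82), OE-CTD 2 (1.91), OE-CTD 3 (1.42) or OE-CTD 4 (1.74), and Duox1 without CT-CTD 1 (1.86), CT-CTD 2 (1.28), CT-CTD 3 (1.86), OE-CTD 2 (1.65), OE-CTD 3 (1.54) or OE-CTD 4 (1.54). Glipr2 was lost without CT-CTD 2 (1.41) alone.

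The 12 largest falls under the same conditions were those of Gm17421, Gm9136, Igha, Cyp2e1, Cd27, Plekhd1, Gpr179, Fkbp5, Gm35048, 1700001O22Rik, 4931413K12Rik and Themis3. Igha, the constant region of immunoglobulin A made by plasma cells, was at 6.09, 11.1 and 33.8 CPM over CT-CTD 1 to 3 against 1.27, 1.62, 1.24 and 1.79 CPM over OE-CTD 1 to 4 (log2 fold change -3.53 ± 0.651 (SE), edgeR adjusted p = 0.0112). Igha was lost without CT-CTD 3 (-2.54). Igha, Gm17421 (-3.88) and Gm9136 (-3.72) lie in the same stretch of chromosome 12, which starts at 113254830 for Igha, 113369522 for Gm17421 and 113396771 for Gm9136 on GRCm38. Gm17421 was lost without CT-CTD 2 (-4.05), CT-CTD 3 (-2.68), OE-CTD 1 (-4.05), OE-CTD 2 (-4.08), OE-CTD 3 (-3.81) or OE-CTD 4 (-3.63). Gm9136 was lost without CT-CTD 2 (-3.82), CT-CTD 3 (-2.79), OE-CTD 1 (-4.17), OE-CTD 2 (-3.78), OE-CTD 3 (-3.61) or OE-CTD 4 (-3.45). Ighm, the most abundant lymphocyte gene, was not altered (log2 fold change -0.36), and CT-CTD 2 and 3 were above CT-CTD 1 in the summed level of that list (356, 676 and 568 CPM over CT-CTD 1 to 3 against 379, 454, 399 and 429 CPM over OE-CTD 1 to 4).

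Cd27, a receptor of lymphocytes, was at 1.74, 4.94 and 5.64 CPM over CT-CTD 1 to 3 against 0.843, 0.165, 0.536 and 0.714 CPM over OE-CTD 1 to 4 (log2 fold change -2.88 ± 0.469 (SE), edgeR adjusted p = 0.00627). Cd27 was altered in all 7 fits without 1 library. It overlaps in position with Vamp1, so that reads of these genes cannot be told apart where they overlap. Plekhd1 was at 2.65, 2.55 and 2.54 CPM over CT-CTD 1 to 3 against 0.460, 0.429, 0.247 and 0.817 CPM over OE-CTD 1 to 4 (log2 fold change -2.42 ± 0.370 (SE), edgeR adjusted p = 0.00575), and 1700001O22Rik (-2.11) and 4931413K12Rik (-2.01, overlapping Pitpna) were likewise altered in all 7 fits. Cyp2e1, a cytochrome P450 of liver and fat, was at 69.0, 5.40 and 9.69 CPM over CT-CTD 1 to 3 against 4.72, 3.13, 2.47 and 1.53 CPM over OE-CTD 1 to 4 (log2 fold change -3.22 ± 0.823 (SE), edgeR adjusted p = 0.0498). CT-CTD 1 carried most of this fall, and Cyp2e1 was lost without CT-CTD 1 (-1.34), CT-CTD 3 (-3.63), OE-CTD 1 (-3.53), OE-CTD 2 (-3.25), OE-CTD 3 (-3.14) or OE-CTD 4 (-3.02). Gpr179 (-2.32) was lost without CT-CTD 2 (-2.37), CT-CTD 3 (-1.59), OE-CTD 1 (-2.48), OE-CTD 2 (-2.10), OE-CTD 3 (-2.31) or OE-CTD 4 (-2.41). Themis3 (-1.91) was lost without CT-CTD 2 (-1.89), CT-CTD 3 (-1.63), OE-CTD 1 (-2.17), OE-CTD 2 (-1.92), OE-CTD 3 (-1.71) or OE-CTD 4 (-1.89), and Gm35048 (-2.24) without CT-CTD 2 (-1.83) only.

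**Figure D2:**
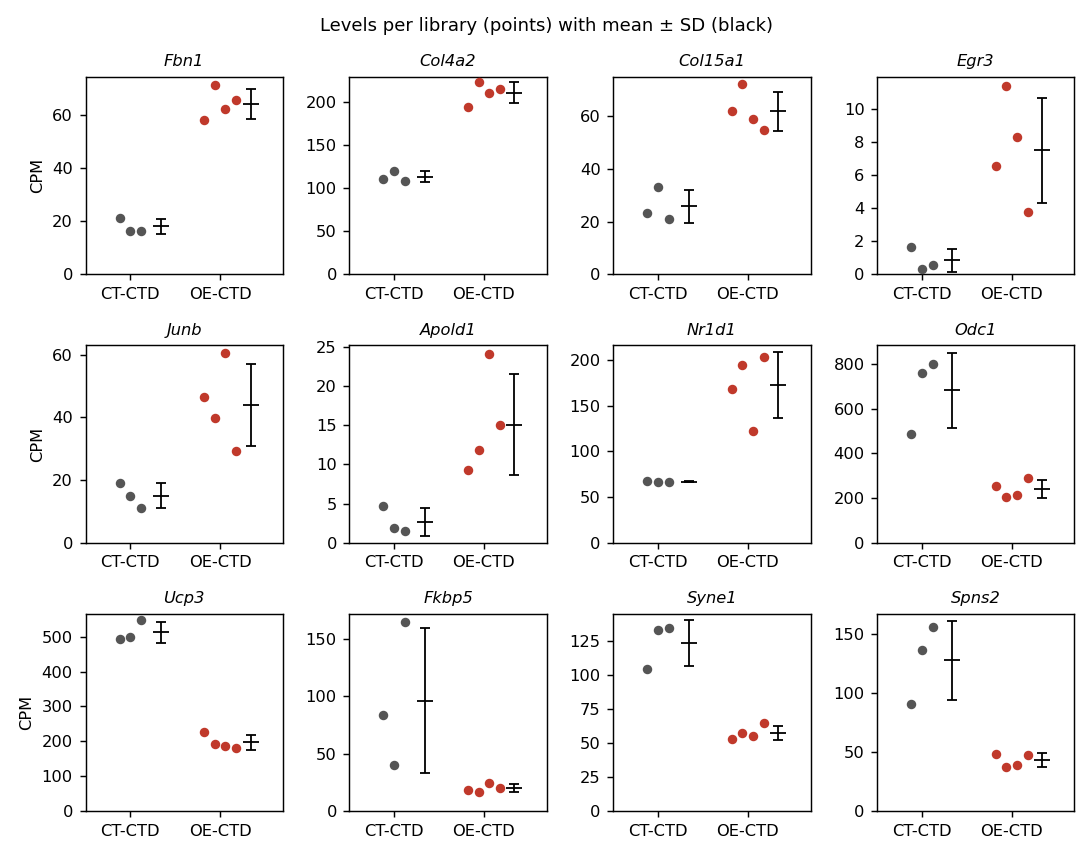
CPM (linear axes from 0) of 12 genes in each of the 3 CT-CTD libraries (gray) and 4 OE-CTD libraries (red), with the mean and SD of each group in black. In each of the 12 genes, as in 292 of the 295 altered genes, the libraries of the groups do not overlap. The spread within CT-CTD runs from Nr1d1, with all CT-CTD libraries near 66.4 CPM, to Fkbp5, with CT-CTD libraries at 83.8, 39.9 and 165 CPM.

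Altered genes of the extracellular matrix were mostly higher. Over all genes tested, 1.18% were higher and 0.725% lower. Of the basement membrane list, the sheet of collagen IV and laminin that endothelial cells and fibres rest on, 6 of 16 tested genes were higher and 0 lower (median log2 fold change 0.54). Col4a2 was at 111, 120.5 and 108 CPM over CT-CTD 1 to 3 against 194, 223, 211 and 216 CPM over OE-CTD 1 to 4 (log2 fold change 0.90 ± 0.150 (SE), edgeR adjusted p = 0.00705), and its partner Col4a1, which shares a promoter region with it, had a log2 fold change of 0.89. Col15a1, a basement membrane collagen of capillaries and muscle, was at 23.3, 33.1 and 21.1 CPM over CT-CTD 1 to 3 against 61.8, 72.1, 58.8 and 54.7 CPM over OE-CTD 1 to 4 (log2 fold change 1.26 ± 0.238 (SE), edgeR adjusted p = 0.0132). The laminin chains Lama4 (log2 fold change 0.76 ± 0.123 (SE), edgeR adjusted p = 0.00627), found in vessels, and Lamb1 (0.84), together with Col18a1 (0.74), made up the 6. Lamb2, the most abundant gene of the list (40.0 FPKM), had a log2 fold change of 0.30, and Col4a3 had the only negative value (-0.24). The count of altered genes in the list was 5, 4 and 2 without CT-CTD 1, 2 and 3 and 5, 4, 5 and 5 without OE-CTD 1, 2, 3 and 4. Col4a1 was lost without CT-CTD 3 (0.87), Col15a1 without CT-CTD 3 (1.14) and Lamb1 without CT-CTD 2 (0.84), CT-CTD 3 (0.89) or OE-CTD 2 (0.76). Col18a1 was lost without any 1 of the 7 libraries (0.65 to 0.82). Col4a1 and Col4a2 overlap at their starts, and Col18a1 overlaps Slc19a1.

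Of the fibrillar collagens and the enzymes that fold and crosslink them, 6 of 21 tested genes were higher, beside 1.18% of all genes tested. In this list 0 were lower, the median log2 fold change was 1.04, and all 21 fold changes were positive. The 6 were the collagen V chains Col5a1 (log2 fold change 1.19 ± 0.248 (SE), edgeR adjusted p = 0.0223) and Col5a3 (0.73), the crosslinking enzymes Loxl1 (1.13) and Loxl2 (1.16), the collagen chaperone Serpinh1 (0.87) and fibronectin, Fn1 (1.08). Col1a1 and Col3a1, the main fibrillar collagens, had log2 fold changes of 1.77 and 1.32 but varied more between libraries and were not altered, and Sparc, the most abundant gene of the list (98.0 FPKM), was at 0.70. This group depended on single libraries, with counts of 2, 0 and 0 without CT-CTD 1, 2 and 3 and 3, 0, 0 and 7 without OE-CTD 1, 2, 3 and 4. Col5a1 was lost without CT-CTD 1 (1.14), CT-CTD 2 (1.25), CT-CTD 3 (1.18), OE-CTD 2 (1.15) or OE-CTD 3 (1.15). Col5a3 was lost without CT-CTD 2 (0.69), CT-CTD 3 (0.66), OE-CTD 2 (0.66) or OE-CTD 3 (0.71), and Loxl1 without CT-CTD 2 (1.19), CT-CTD 3 (1.07), OE-CTD 2 (1.09) or OE-CTD 3 (1.12). Loxl2 was lost without CT-CTD 1 (1.14), CT-CTD 2 (1.20), CT-CTD 3 (1.13), OE-CTD 1 (1.21), OE-CTD 2 (1.03) or OE-CTD 3 (1.14). Serpinh1 was lost without CT-CTD 1 (0.82), CT-CTD 2 (0.90), CT-CTD 3 (0.89), OE-CTD 1 (0.91), OE-CTD 2 (0.76) or OE-CTD 3 (0.84), and Fn1 without CT-CTD 1 (1.15), CT-CTD 2 (1.08), CT-CTD 3 (1.02), OE-CTD 1 (1.16), OE-CTD 2 (1.05) or OE-CTD 3 (0.97). The summed level was 957, 901 and 826 CPM over CT-CTD 1 to 3 against 1862, 2122, 2024 and 1397 CPM over OE-CTD 1 to 4, with OE-CTD 4 nearest to CT.

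Among matrix metalloproteinases and their inhibitors, 2 of 14 tested genes were higher and 1 lower, beside 1.18% and 0.725% of all genes tested. The median log2 fold change of the list was 0.70. The gelatinase Mmp2 (1.18) and Adamts1 (0.66) were higher, and Timp4, an inhibitor expressed by capillary endothelium and muscle, was lower, at 42.7, 32.9 and 46.3 CPM over CT-CTD 1 to 3 against 23.0, 19.5, 20.8 and 18.4 CPM over OE-CTD 1 to 4 (log2 fold change -0.99 ± 0.154 (SE), edgeR adjusted p = 0.00614). Timp4 was altered without each library in turn. Mmp2 was lost without CT-CTD 1 (1.30), CT-CTD 2 (1.05), CT-CTD 3 (1.19), OE-CTD 1 (1.17), OE-CTD 2 (1.10) or OE-CTD 3 (1.15), and Adamts1 without CT-CTD 1 (0.59), CT-CTD 3 (0.55), OE-CTD 2 (0.62) or OE-CTD 3 (0.55). The most abundant gene of this list, Timp2 (29.3 FPKM), was not altered (0.73).

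How many markers of the cells that make matrix passed the test depended on the setting. Of the fibroblast list, 2 of 10 tested genes were higher and 0 lower (median log2 fold change 0.78), Mfap5 (0.78) and Pi16 (0.66), and its summed level was 1138, 949 and 804 CPM over CT-CTD 1 to 3 against 1856, 2195, 2096 and 1232 CPM over OE-CTD 1 to 4. At an unadjusted p under 0.05 and over 1.5-fold 9 of the 10 were higher, beside 4.94% of all genes tested. Libraries of 7 did not overlap between the groups, beside 15.5% of all genes tested, and 4 by DESeq2 and 1 by limma were altered. The count of altered fibroblast genes by edgeR was 1, 0 and 0 without CT-CTD 1, 2 and 3 and 1, 0, 0 and 2 without OE-CTD 1, 2, 3 and 4. It was 9 without a filter on low counts, 7 with only the 7 control diet libraries, 6 with the replicate block and 0 with library totals only. Mfap5 was lost without CT-CTD 2 (0.69), CT-CTD 3 (0.81), OE-CTD 2 (0.72) or OE-CTD 3 (0.67), and Pi16 without CT-CTD 1 (0.73), CT-CTD 2 (0.63), CT-CTD 3 (0.64), OE-CTD 1 (0.67), OE-CTD 2 (0.62) or OE-CTD 3 (0.60). Gsn was its most abundant gene (233 FPKM, 0.73), and none of the 10 markers was at 0. Of the tendon list, 0 of 9 genes were altered by edgeR, with 6 higher at an unadjusted p under 0.05 and 0 by DESeq2 and 0 by limma, and the median log2 fold change was 1.67. Of the 16 other settings that kept the group names, 3 altered Thbs4 and 2 altered Fmod. The summed tendon level was 259, 109 and 176 CPM over CT-CTD 1 to 3 against 449, 685, 551 and 337 CPM over OE-CTD 1 to 4, with no overlap between the groups, and Fmod was its most abundant gene (56.7 FPKM, 1.67), Thbs4 its member of smallest p (1.15), and Scx, a defining factor of tendon, at 0.23. Of the macrophage list 0 of 10 were altered by edgeR, 7 were higher at an unadjusted p and 3 by DESeq2 and 0 by limma (median 0.84), and edgeR altered C1qa (1.13) and C1qb (1.15) without CT-CTD 1. Its summed level was 252, 75.4 and 91.3 CPM over CT-CTD 1 to 3 against 135, 172, 209 and 129 CPM over OE-CTD 1 to 4, highest in CT-CTD 1, with Lyz2 the most abundant (23.1 FPKM) and C1qa of the smallest p (0.88). Epidermal and hair follicle markers, which mark skin or hair carried over at dissection, were low and uneven (58.4, 5.94 and 15.6 CPM over CT-CTD 1 to 3 against 26.0, 49.5, 51.9 and 3.83 CPM over OE-CTD 1 to 4), with 0 of 13 altered by edgeR, 1 higher at an unadjusted p and 0 by DESeq2 and 0 by limma. The part of fibroblast, tendon, macrophage or skin content in the matrix genes was not tested.

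**Figure D3:**
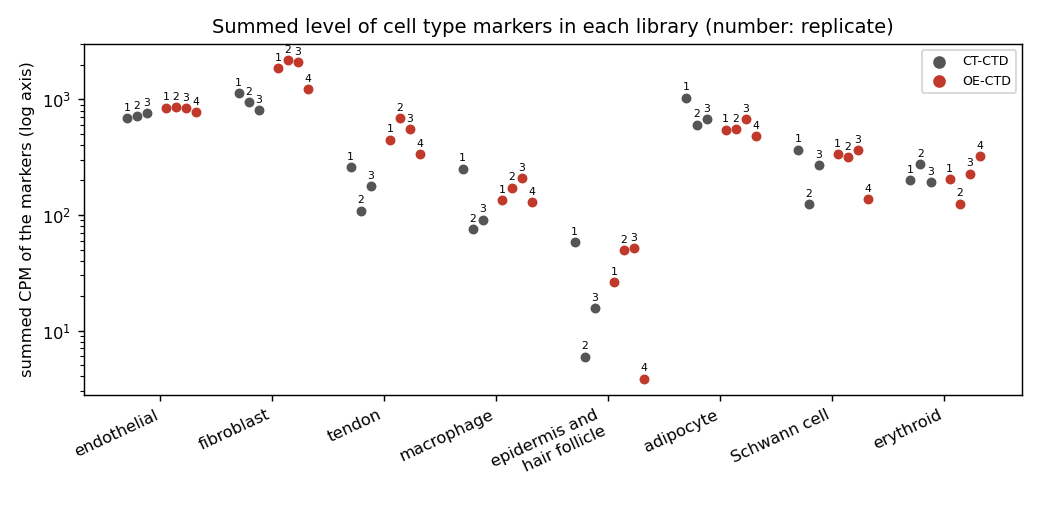
Summed CPM (log axis) of the markers of 8 cell types in each library, CT-CTD in gray and OE-CTD in red, with the replicate number above each point. Fibroblast and tendon sums of OE-CTD lie above those of CT-CTD, with OE-CTD 4 the lowest of its group. Endothelial sums of OE-CTD (782 to 862 CPM) also lie above those of CT-CTD (685 to 755 CPM) but differ less.

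Endothelial markers, which the transgene's cells should carry, held 1 altered gene. In the list 1 of 18 tested genes was higher and 0 lower (median log2 fold change 0.26). The gene that passed was Cd34 (log2 fold change 0.60 ± 0.144 (SE), edgeR adjusted p = 0.0389), a sialomucin also found on fibroblast progenitors, lost without CT-CTD 1 (0.53), CT-CTD 2 (0.70), CT-CTD 3 (0.58), OE-CTD 1 (0.61), OE-CTD 2 (0.56) or OE-CTD 3 (0.56), with library totals only and by limma. Tek, the angiopoietin receptor, had an edgeR adjusted p of 0.0232 but a rise under 1.5-fold (0.52). Cdh5 was at 0.26, and Sox18, an endothelial transcription factor, had the most negative value (-0.66). The summed level of the list was 685, 720.1 and 755 CPM over CT-CTD 1 to 3 against 849, 862, 847 and 782 CPM over OE-CTD 1 to 4, with no overlap between the groups. Among capillary markers 0 of 10 tested genes were higher and 1 lower (median log2 fold change -0.14), the lower gene being Timp4. At an unadjusted p under 0.05 and over 1.5-fold, 1 was higher and 2 were lower. Meox2 had the smallest p among those above 0 (0.61), while Aqp1, the most abundant (148 FPKM), was not altered. Of 8 arterial and 10 venous and lymphatic markers 0 were altered by edgeR, DESeq2 or limma, with 0 and 2 higher at an unadjusted p under 0.05 (medians 0.06 and 0.27). Dll4 (0.63) had the smallest p of the arterial markers, and Flt4 (0.48) of the venous and lymphatic ones, which were all above 0. Pericytes and smooth muscle likewise had 0 of 10 altered by edgeR, DESeq2 or limma and 1 higher at an unadjusted p (median 0.18), with Cspg4 at 0.66, Abcc9 at -0.17 and Rgs5 the most abundant (49.2 FPKM). Cspg4 was altered in 1 of the 16 other settings that kept the group names.

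Signals to and from the endothelium were mostly unaltered. Of 15 angiogenic ligands 0 were altered by edgeR, DESeq2 or limma, with 4 higher at an unadjusted p under 0.05 (median 0.36). Angptl2 had the smallest p (0.55), Fgf1 the smallest among those below 0 (-0.21), and Vegfb was the most abundant (91.1 FPKM). Among their receptors, 1 of 15 tested genes was higher and 0 lower (median log2 fold change 0.37), and the gene was Ackr3 (log2 fold change 0.84 ± 0.179 (SE), edgeR adjusted p = 0.0238), a scavenging receptor for Cxcl12, lost without CT-CTD 2 (0.84), CT-CTD 3 (0.78), OE-CTD 1 (0.82), OE-CTD 2 (0.80) or OE-CTD 3 (0.78). Flt1, the decoy receptor for Vegf, was not altered, nor was Fgfr1, the most abundant receptor (11.5 FPKM). Of 14 Notch genes 0 were altered by edgeR, DESeq2 or limma and 0 at an unadjusted p (median 0.21), with Heyl at 0.51, Notch4 at -0.14 and Hes1, the most abundant, at 0.53. Hes1 was altered in 1 of the 16 other settings that kept the group names.

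Of the vasoactive list, 1 of 17 tested genes was higher and 0 lower (median log2 fold change 0.33). Klf2, a flow-responsive factor of endothelium that also belongs to the immediate early list and was the most abundant member (24.3 FPKM), rose (log2 fold change 1.35 ± 0.345 (SE), edgeR adjusted p = 0.0492), with 28.0, 20.2 and 16.9 CPM over CT-CTD 1 to 3 against 32.2, 37.7, 93.1 and 59.1 CPM over OE-CTD 1 to 4. Endothelial nitric oxide synthase, Nos3, had an edgeR adjusted p of 0.0438 below the 1.5-fold limit (0.56), and Edn1, the precursor of the constrictor endothelin-1, was at -0.78. Klf2 was lost without CT-CTD 1 (1.58), CT-CTD 2 (1.31), CT-CTD 3 (1.20), OE-CTD 2 (1.502), OE-CTD 3 (0.98) or OE-CTD 4 (1.32). It was also lost with library totals only, with a filter of at least 1 CPM and by limma, and the list held 2 altered genes with only the 7 control diet libraries. Among genes of leukocyte adhesion and chemokines, 2 of 10 tested genes were higher and 0 lower (median log2 fold change 0.79), namely the eotaxin gene Ccl11 (log2 fold change 0.82 ± 0.159 (SE), edgeR adjusted p = 0.0155) and the adhesion molecule Icam1 (0.77). Its count was 3, 0 and 0 without CT-CTD 1, 2 and 3 and 2, 0, 0 and 2 without OE-CTD 1, 2, 3 and 4, Ccl11 being lost without CT-CTD 2 (0.84), CT-CTD 3 (0.76), OE-CTD 2 (0.74) or OE-CTD 3 (0.80) and Icam1 without CT-CTD 2 (0.71), CT-CTD 3 (0.75), OE-CTD 2 (0.80) or OE-CTD 3 (0.64), and all 10 members tested were above 0. This list held 0 altered genes with library totals only and 1 by limma. Cxcl14 was the most abundant (19.5 FPKM, 0.63). The sphingosine 1-phosphate transporter Spns2 fell (log2 fold change -1.57 ± 0.174 (SE), edgeR adjusted p = 0.00122), at 90.6, 136 and 156 CPM over CT-CTD 1 to 3 against 48.3, 36.9, 39.2 and 47.6 CPM over OE-CTD 1 to 4, without overlap and in every fit without 1 library, and it overlaps in position with Mybbp1a. Spns2 was named after its values were seen.

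Immediate early genes, which respond within minutes to contraction, stretch, growth factors or handling of the tissue, held 4 altered genes. In the list 4 of 21 tested genes were higher, beside 1.18% of all genes tested, and 0 lower (median log2 fold change 0.81). At an unadjusted p under 0.05, 11 were higher, beside 4.94% of all genes tested, and 20 of the 21 values were positive. DESeq2 altered 8 genes of the list and limma 2. Junb was at 18.9, 14.9 and 10.9 CPM over CT-CTD 1 to 3 against 46.4, 39.8, 60.5 and 29.1 CPM over OE-CTD 1 to 4 (log2 fold change 1.56 ± 0.260 (SE), edgeR adjusted p = 0.00704), with OE-CTD 4 the lowest and OE-CTD 3 the highest of its group, and its position overlaps Prdx2. Besides Egr3 and Klf2, Ier2 rose (log2 fold change 1.22 ± 0.291 (SE), edgeR adjusted p = 0.0386). Nr4a1, an orphan nuclear receptor and the most abundant member (71.7 FPKM), was at 131, 136 and 221 CPM over CT-CTD 1 to 3 against 194, 274, 401 and 256 CPM over OE-CTD 1 to 4 and was not altered (0.79), and Jun was the only member below 0 (-0.42). The number of altered genes in the list was 4, 1 and 0 without CT-CTD 1, 2 and 3 and 3, 2, 2 and 5 without OE-CTD 1, 2, 3 and 4, where that without CT-CTD 1 is 3 higher genes and Jun, then altered and lower (-0.61). Junb was lost without CT-CTD 3 (1.38) and Ier2 without CT-CTD 1 (1.33), CT-CTD 2 (1.22), CT-CTD 3 (1.11), OE-CTD 1 (1.04), OE-CTD 2 (1.19) or OE-CTD 3 (1.24). The summed level was 607, 615 and 659.7 CPM over CT-CTD 1 to 3 against 910.1, 936, 1245 and 818 CPM over OE-CTD 1 to 4. The time of day and handling at collection were not given in the sources used here and their part was not tested.

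**Figure D4:**
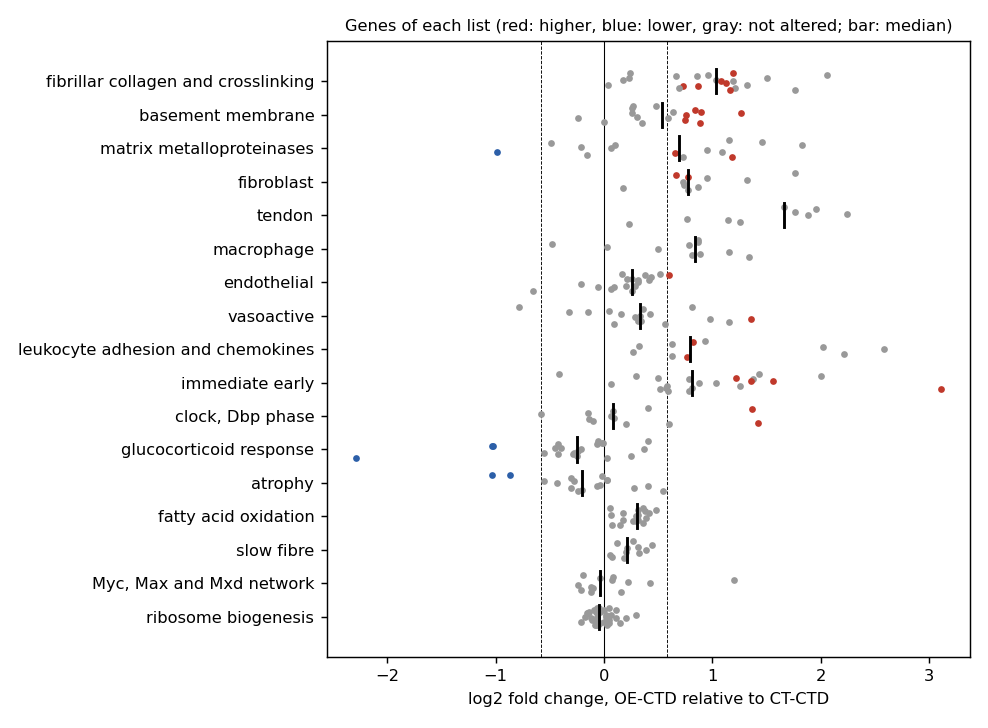
Log2 fold change of OE-CTD relative to CT-CTD for the tested genes of 17 lists, with higher genes in red, lower genes in blue, genes that were not altered in gray and the median of each list as a black bar. Medians run from -0.24 for the glucocorticoid response to 1.67 for tendon, and the lists of ribosome biogenesis and of the Myc network lie around 0.

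Genes induced by glucocorticoids held 3 altered genes, all lower. In this list 0 of 21 tested genes were higher and 3 lower, beside 0.725% lower of all genes tested. The median log2 fold change was -0.24, and 17 of 21 values were negative. Fkbp5, which restrains the glucocorticoid receptor, was at 83.8, 39.9 and 165 CPM over CT-CTD 1 to 3 against 18.02, 16.5, 24.2 and 20.1 CPM over OE-CTD 1 to 4 (log2 fold change -2.29 ± 0.403 (SE), edgeR adjusted p = 0.00976), so that CT-CTD 3 was the highest and CT-CTD 2 the lowest of widely spread CT libraries. It was lost without CT-CTD 3 (-1.65). Zbtb16 (PLZF), a transcriptional repressor that the study also names, was at 82.1, 79.5 and 98.8 CPM over CT-CTD 1 to 3 against 40.8, 46.6, 44.1 and 39.3 CPM over OE-CTD 1 to 4 (log2 fold change -1.02 ± 0.154 (SE), edgeR adjusted p = 0.00575). Zbtb16 was altered in all 7 fits without 1 library. Fbxo32 (atrogin-1), a ubiquitin ligase of muscle atrophy, was lower (log2 fold change -1.04 ± 0.240 (SE), edgeR adjusted p = 0.0345). Fbxo32 was lost without any 1 of the 7 libraries (-1.17 to -0.97). Sesn1 had the smallest p among members above 0 (0.25), and Trim63 (MuRF1), the most abundant member (104 FPKM), was at -0.27. The list's count was 2, 2 and 1 without CT-CTD 1, 2 and 3 and 2, 2, 2 and 2 without OE-CTD 1, 2, 3 and 4. It was 2 with the replicate block and 1 by limma.

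Of the atrophy list, 0 of 17 tested genes were higher and 2 lower (median log2 fold change -0.20), Fbxo32 and Mstn. Myostatin, the product of Mstn and an inhibitor of muscle growth, was at 94.3, 126 and 134 CPM over CT-CTD 1 to 3 against 59.9, 62.2, 59.5 and 77.4 CPM over OE-CTD 1 to 4 (log2 fold change -0.87 ± 0.128 (SE), edgeR adjusted p = 0.00575) and was altered without each library in turn, whereas the list's count was 1, 1 and 1 without CT-CTD 1, 2 and 3 and 1, 1, 1 and 1 without OE-CTD 1, 2, 3 and 4. Ctsl had an edgeR adjusted p of 0.0386 below the 1.5-fold limit (0.41), and Sqstm1 was the most abundant member (233 FPKM). Among satellite cell genes, 0 of 10 tested genes were higher and 1 lower (median log2 fold change 0.17), the gene being the myogenic factor Myod1 (log2 fold change -0.69 ± 0.160 (SE), edgeR adjusted p = 0.0346). Myod1 was lost without CT-CTD 2 (-0.49), CT-CTD 3 (-0.67), OE-CTD 1 (-0.72), OE-CTD 2 (-0.65), OE-CTD 3 (-0.72) or OE-CTD 4 (-0.67). It was also lost with library totals only and by limma. Chodl was at 0.52 and Myf6, the most abundant, at -0.55.

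Of the clock lists, only that of the Dbp phase held altered genes by edgeR, and clock genes outside these lists were not counted. Of the list that peaks with Dbp, 2 of 12 tested genes were higher and 0 lower (median log2 fold change 0.09). Nr1d1, the Rev-erb alpha repressor of Bmal1, was at 68.1, 66.4 and 66.5 CPM over CT-CTD 1 to 3 against 169, 195, 123 and 204 CPM over OE-CTD 1 to 4 (log2 fold change 1.37 ± 0.206 (SE), edgeR adjusted p = 0.00575). Ciart, a repressor of the clock, rose too (log2 fold change 1.42 ± 0.322 (SE), edgeR adjusted p = 0.0314). Ciart was lost without CT-CTD 1 (1.22), CT-CTD 2 (1.26), OE-CTD 1 (1.499), OE-CTD 2 (1.36) or OE-CTD 3 (1.40). Per2 had an edgeR adjusted p of 0.0324 in the other direction, just under the 1.5-fold limit (-0.58), and Usp2, the most abundant, was at 0.09. The list's count was 1, 1 and 2 without CT-CTD 1, 2 and 3 and 1, 1, 2 and 3 without OE-CTD 1, 2, 3 and 4, which includes Per2 as a lower gene without OE-CTD 3 (-0.66) and OE-CTD 4 (-0.61). Of 7 genes of the Bmal1 phase 0 were altered by edgeR, DESeq2 or limma and 0 at an unadjusted p over 1.5-fold (median -0.19), and edgeR altered Rora (-0.60) without CT-CTD 1. Rora was lower by less than 1.5-fold (-0.55, edgeR adjusted p = 0.00617) and Arntl (Bmal1) was at 0.10. Nr1d1 overlaps Thra and Ciart overlaps C920021L13Rik, and the strand setting of the counting was not given in the sources used here.

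The lists of ribosome biogenesis and of the Myc network held no gene altered by edgeR. Of 34 ribosome biogenesis genes 0 were altered by edgeR, DESeq2 or limma and 0 at an unadjusted p over 1.5-fold, with a median log2 fold change of -0.04 and 20 below 0. Nop58 (0.29) and Noc2l (-0.22) had the smallest p in each direction, and nucleophosmin, Npm1, was the most abundant (30.0 FPKM, -0.15). The summed level of the list was 1197 ± 6.87 CPM (SD, n = 3) in CT-CTD and 1175 ± 33.96 CPM (SD, n = 4) in OE-CTD. Of 13 tested genes of the Myc, Max and Mxd network 0 were altered by edgeR, DESeq2 or limma, with 1 higher at an unadjusted p (median -0.04). Mnt, a Max partner that opposes c-Myc, had an edgeR adjusted p of 0.0396 with a rise below 1.5-fold (0.42), Mga had the smallest p among those below 0 (-0.21), and Mlxipl was the most abundant (23.5 FPKM, -0.12).

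Translation and growth lists held no altered gene either. Of 80 cytosolic ribosomal proteins 0 were altered by edgeR, DESeq2 or limma and 1 was lower at an unadjusted p (median -0.09), while 62 of the 80 were below 0, with Rpl22l1 at -0.40 and Rplp1 the most abundant (792 FPKM). Of 20 aminoacyl-tRNA synthetases and 19 translation factors 0 were altered by edgeR, DESeq2 or limma and 0 at an unadjusted p over 1.5-fold (medians -0.06 and -0.09), while 17 of the 20 and 13 of the 19 were below 0. Tars was at -0.18 and Nars, the most abundant synthetase, at 0.03. Eif4ebp1, a repressor of cap-dependent translation, had an edgeR adjusted p of 0.0318 below the limit (-0.52) and was altered in the fit without OE-CTD 1 (-0.61), and Eef1a2, the muscle elongation factor and the most abundant, was at 0.16. Of 22 cell cycle genes 0 were altered by edgeR, DESeq2 or limma and 1 was higher at an unadjusted p (median 0.07), with Ccnd3 at 0.35, Cdkn2c at -0.36 and Cdkn1b the most abundant (12.6 FPKM).

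In the list of polyamine, nucleotide and one-carbon genes, 0 of 26 tested genes were higher and 1 lower (median log2 fold change -0.01), and the gene was Odc1, ornithine decarboxylase. Odc1 was at 488, 759 and 800.3 CPM over CT-CTD 1 to 3 against 256, 203, 214 and 291 CPM over OE-CTD 1 to 4 (log2 fold change -1.502 ± 0.222 (SE), edgeR adjusted p = 0.00575), with CT-CTD 1 the lowest of CT, and was altered without each library in turn. Processed copies of Odc1 listed as Gm7993 (-1.499, 95.8% identical to the Odc1 transcript over the aligned stretch) was lower too, with copies of lower level at Gm9115, Gm17709 and Gm9260, and reads of Odc1 and of these copies can be counted for each other. Impdh1 had the smallest p among those above 0 (0.35), and Amd1, S-adenosylmethionine decarboxylase, was the most abundant (318 FPKM, -0.33).

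Some metabolic lists held 1 or 2 altered genes and others 0, beside 1.91% of all genes tested. Ucp3, an uncoupling protein of the muscle mitochondrion, was at 493, 498 and 548 CPM over CT-CTD 1 to 3 against 227, 192, 188 and 181 CPM over OE-CTD 1 to 4 (log2 fold change -1.38 ± 0.211 (SE), edgeR adjusted p = 0.00575), without overlap and in every fit without 1 library. It was the altered gene of the PPAR-responsive list, where 0 of 19 tested genes were higher and 1 lower (median log2 fold change 0.09), with 2 lower without CT-CTD 3, without OE-CTD 4, by DESeq2, without a filter on low counts, with only the 7 control diet libraries and with the replicate block, while Ech1 had an edgeR adjusted p of 0.0184 below the limit (0.44) and Fabp3, the most abundant, was at 0.50. Acsl3, which activates long-chain fatty acids and which the study names, fell (log2 fold change -0.96 ± 0.161 (SE), edgeR adjusted p = 0.00730), at 39.2, 29.1 and 42.4 CPM over CT-CTD 1 to 3 against 19.4, 19.6, 16.6 and 20.5 CPM over OE-CTD 1 to 4, and was lost without CT-CTD 3 (-0.84). It was the only altered gene of fatty acid uptake and activation, where 0 of 17 tested genes were higher and 1 lower (median log2 fold change -0.10), and its stretch of near-identity with Utp14b covers little of the transcript. Of 18 fatty acid oxidation genes 0 were altered by edgeR, DESeq2 or limma and 0 at an unadjusted p over 1.5-fold, but all 18 values were positive, with a median of 0.31. Decr1 (0.48), Hadha (0.36), Acaa2 (0.41) and Acads (0.30) had edgeR adjusted p of 0.0111, 0.0310, 0.0358 and 0.0378 below the 1.5-fold limit. Acadl was the most abundant (219.9 FPKM, 0.29). Summed levels of the list were 3051, 2974 and 3614 CPM over CT-CTD 1 to 3 against 4254, 4094, 4023 and 3561 CPM over OE-CTD 1 to 4, and edgeR altered Decr1 (0.61) without CT-CTD 3.

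Among genes of insulin signalling and glucose uptake, 0 of 20 tested genes were higher and 2 lower (median log2 fold change 0.02). Rabif, a chaperone of Rab10 in Glut4 traffic that the study names, was at 53.4, 36.9 and 26.2 CPM over CT-CTD 1 to 3 against 21.7, 13.7, 12.9 and 22.4 CPM over OE-CTD 1 to 4 (log2 fold change -1.14 ± 0.251 (SE), edgeR adjusted p = 0.0292). Rabif was lost without CT-CTD 1 (-0.84), CT-CTD 2 (-1.17), OE-CTD 2 (-1.04) or OE-CTD 3 (-1.02). Tbc1d1, a Rab GTPase-activating protein that restrains Glut4, fell as well (log2 fold change -0.73 ± 0.134 (SE), edgeR adjusted p = 0.0112). Tbc1d1 was lost without CT-CTD 3 (-0.66). Slc2a1 (Glut1) had the smallest p among those above 0 (0.90), and Slc2a4 (Glut4), the most abundant, was at -0.22. The list's count was 2, 1 and 1 without CT-CTD 1, 2 and 3 and 2, 1, 1 and 2 without OE-CTD 1, 2, 3 and 4, which includes Slc2a1 as a higher gene without CT-CTD 1 (1.25). Of the other genes the study names, Socs3 (0.99), Foxo1 (-0.24), Angptl4 (-0.02), Rrad (0.21), Wnt10a (-0.71) and S100a14 (-0.11) were not altered. Single libraries moved some of these, as Socs3 was at 1.82 and S100a14 at 1.85 without CT-CTD 1, Rrad at 1.21 without CT-CTD 2 and S100a14 at -0.78 without OE-CTD 3, and S100a3 had too few counts to be tested.

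Of the glycolysis list, with 18 entries tested for 17 symbols since Aldoa is listed at 2 loci, 1 was higher and 0 lower (median 0.03). The gene was Pgam1 (log2 fold change 0.60 ± 0.143 (SE), edgeR adjusted p = 0.0386), lost without CT-CTD 2 (0.44), CT-CTD 3 (0.62), OE-CTD 1 (0.64), OE-CTD 2 (0.64), OE-CTD 3 (0.54) or OE-CTD 4 (0.57). It was also lost with library totals only and by limma. Pgk1 had the smallest p among those below 0 (-0.30). Gapdh varied far more than its neighbours in the pathway, at 647, 206 and 749 CPM over CT-CTD 1 to 3 against 168, 439, 18.3 and 16.1 CPM over OE-CTD 1 to 4, and was not altered (-1.73, -2.98 without OE-CTD 2, edgeR adjusted p = 0.437). Many copies of part of its transcript lie in the genome, among them Gm13394, with more counts than Gapdh itself, so that its level is uncertain. Of 17 glycogen genes 0 were altered by edgeR, 1 was higher and 1 lower at an unadjusted p and 1 by DESeq2 and 0 by limma (median -0.12), and edgeR altered Phka1 (-0.64) without CT-CTD 1. Pgm2 had an edgeR adjusted p of 0.0152 below the limit (-0.47), Pgm1 was at 0.80, and Pygm, the phosphorylase and the most abundant (2715 FPKM), at -0.09. Hypoxia response genes had 0 of 15 altered by edgeR, 3 higher at an unadjusted p and 2 by DESeq2 and 0 by limma (median 0.12), with Slc2a1 at 0.90 and Ldha the most abundant (801 FPKM), and edgeR altered Slc2a1 (1.25) without CT-CTD 1 and Pfkfb3 (1.43) without CT-CTD 2.

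Of 15 lipogenic genes 0 were altered by edgeR, 2 were higher and 2 lower at an unadjusted p and 1 by DESeq2 and 0 by limma (median -0.11, but 0.46 without CT-CTD 1), with Fads2 at 1.02, Thrsp at -1.40 (-0.14 without CT-CTD 1) and Scd1 the most abundant (101 FPKM), and edgeR altered Acly (0.68) without CT-CTD 1. Cholesterol synthesis had 0 of 17 altered by edgeR, DESeq2 or limma and 0 at an unadjusted p (median 0.03), with Srebf2 at 0.20, Sc5d at -0.27 and Fdft1, the most abundant, at -0.04. In adipocyte markers, which report fat between the fibres, 0 of 10 were altered by edgeR, DESeq2 or limma, 1 higher and 1 lower at an unadjusted p (median -0.40, but 0.45 without CT-CTD 1), and their summed level was 1035, 606 and 671 CPM over CT-CTD 1 to 3 against 548, 553, 674 and 484 CPM over OE-CTD 1 to 4. Lep (1.95, but 3.08 without CT-CTD 2) and Plin4 (-0.52, the most abundant) had the smallest p in each direction. Lep was altered in 1 of the 16 other settings that kept the group names.

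Nuclear genes of oxidative metabolism mostly had fold changes above 0, and none was altered. Of 20 TCA cycle genes and 37, 8, 16 and 17 tested genes of complexes I, III, IV and V, 0 were altered by edgeR, DESeq2 or limma and 0 at an unadjusted p over 1.5-fold. Medians were 0.08 for the TCA cycle and 0.09, 0.12, 0.09 and 0.09 for the complexes, and the fold change was above 0 for 15 of 20, 30 of 37, 7 of 8, 15 of 16 and 15 of 17 genes in turn. Summed levels overlapped between the groups for the TCA cycle and for complexes I and V. For complex III they were at 2555, 2834 and 2897 CPM over CT-CTD 1 to 3 against 3214, 2956, 2899 and 2899 CPM over OE-CTD 1 to 4. There CT-CTD 3 (2896.7 CPM) and OE-CTD 3 (2898.6 CPM) were almost equal. For complex IV they did not overlap, at 3519, 3571 and 3486 CPM over CT-CTD 1 to 3 against 4113, 3751, 3619 and 3837 CPM over OE-CTD 1 to 4. Of all genes tested, 15.5% did not overlap either. Mdh2 (0.21) had the smallest p of the TCA genes. In the complexes the smallest p were those of Ndufv1 (0.18) for I, Uqcrq (0.20) for III, Cox8a (0.32) for IV and Atp5k (0.22) for V. Genes encoded by mitochondrial DNA had 0 of 13 altered by edgeR, DESeq2 or limma and 1 higher at an unadjusted p (median 0.26, but 0.06 without OE-CTD 4), mt-Nd3 (2.69), whose level is uncertain because Gm28438 is a near-identical copy with more counts, and their summed level was highest in OE-CTD 4 (115349, 99983 and 103190.0 CPM over CT-CTD 1 to 3 against 122874, 105113, 105507 and 165117 CPM over OE-CTD 1 to 4). The gene mt-Nd3 was altered in 1 of the 16 other settings that kept the group names. Of 77 mitochondrial ribosomal proteins and 37 proteasome subunits 0 were altered by edgeR, DESeq2 or limma and 0 at an unadjusted p over 1.5-fold (medians -0.02 and -0.06). Mrpl14 (0.20) and Mrps14 (-0.17), and Psma1 (0.16) and Psmd8 (-0.40), had the smallest p in each direction.

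In the PGC-1 and ERR list, 1 of 13 tested genes was higher and 0 lower (median log2 fold change 0.08), and the gene was the orphan receptor Esrrb (log2 fold change 0.75 ± 0.116 (SE), edgeR adjusted p = 0.00605), at 16.7, 12.05 and 16.5 CPM over CT-CTD 1 to 3 against 23.5, 25.5, 23.5 and 29.1 CPM over OE-CTD 1 to 4, altered without each library in turn. Perm1 was the most abundant (114 FPKM, 0.20), Ppargc1a was at 0.44 and Sirt1 at -0.14.

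Fibre type genes did not pass the test. Of 11 slow fibre genes 0 were altered by edgeR, DESeq2 or limma and 0 at an unadjusted p over 1.5-fold, although all 11 values were positive (median 0.21), with Casq2 at 0.44 and Myh7, the slow myosin, at 0.18. Of 13 fast fibre genes 0 were altered by edgeR, DESeq2 or limma and 1 was lower at an unadjusted p, Tnnc2 (-1.11), with a median of 0.02. The fast myosins Myh4 and Myh2 were at -0.25 and 0.34. Summed fast fibre levels were 137595, 147565 and 135124 CPM over CT-CTD 1 to 3 against 124389, 120185, 124566 and 162997 CPM over OE-CTD 1 to 4, and summed slow fibre levels 6043, 4926 and 6796 CPM over CT-CTD 1 to 3 against 7021, 6813, 6624 and 7797 CPM over OE-CTD 1 to 4, so that OE-CTD 4 was the highest library in both. The shares of soleus and gastrocnemius in each library were not given and their part was not tested.

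Among sarcomere genes, 0 of 20 tested genes were higher and 1 lower (median log2 fold change -0.04), and the gene was Mylk4, a muscle kinase, at 2466, 2858 and 2524 CPM over CT-CTD 1 to 3 against 1659, 1522, 1629 and 1854 CPM over OE-CTD 1 to 4 (log2 fold change -0.65 ± 0.104 (SE), edgeR adjusted p = 0.00627). Mylk4 was lost without CT-CTD 2 (-0.58). Mybpc1 had the smallest p among those above 0 (0.35), and Actn3, the most abundant (2746 FPKM), was not altered. Syne1, the gene of the smallest p, was at 104, 133 and 134 CPM over CT-CTD 1 to 3 against 52.7, 57.3, 55.2 and 64.8 CPM over OE-CTD 1 to 4 (log2 fold change -1.10 ± 0.110 (SE), edgeR adjusted p = 0.000575), without overlap and in every fit without 1 library, and was named after its values were seen. Of 19 calcium handling genes 0 were altered by edgeR, DESeq2 or limma and 2 were higher at an unadjusted p (median 0.11), with Casq2 of the smallest p, Trdn at -0.32 and Atp2a1 the most abundant (9491 FPKM). Neuromuscular junction genes had 0 of 11 altered by edgeR, DESeq2 or limma and 1 lower at an unadjusted p, Musk (-0.99), with Dok7 at 0.23 and a median of 0.06. Musk was altered in 2 of the 16 other settings that kept the group names.

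Among myokines, which muscle secretes, 1 of 18 tested genes was higher and 1 lower (median log2 fold change 0.61). Ostn, musclin, a peptide released with activity, rose (log2 fold change 0.61 ± 0.0916 (SE), edgeR adjusted p = 0.00575), at 14.7, 14.8 and 14.3 CPM over CT-CTD 1 to 3 against 20.0, 22.9, 23.7 and 22.5 CPM over OE-CTD 1 to 4, lost without OE-CTD 3 (0.58), and Mstn fell as above. Dcn, the most abundant, was at 0.95. In the S100 family, 2 of 8 tested genes were higher and 0 lower (median log2 fold change 0.16), the genes being S100a11 (log2 fold change 0.82 ± 0.141 (SE), edgeR adjusted p = 0.00807) and S100a6 (0.86), calcium-binding proteins of many non-muscle cells. S100a11 was lost without CT-CTD 3 (0.72) and S100a6 without CT-CTD 2 (0.81), CT-CTD 3 (0.74), OE-CTD 2 (0.87) or OE-CTD 3 (0.81), while S100a1, the muscle member and the most abundant (143 FPKM), was not altered. The median of the family was 0.74 without CT-CTD 1. S100a11 has near-identical copies in the genome, so that its level is uncertain.

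Stress and immune lists held few altered genes. Of metallothioneins and Nrf2 targets, 2 of 17 tested genes were higher and 0 lower (median log2 fold change 0.07), namely the glutathione transferase Gstm2 (log2 fold change 0.61 ± 0.0897 (SE), edgeR adjusted p = 0.00575) and the extracellular superoxide dismutase Sod3 (0.70), lost without CT-CTD 3 (0.54) and without CT-CTD 1 (0.79), CT-CTD 2 (0.72), CT-CTD 3 (0.57), OE-CTD 1 (0.70), OE-CTD 2 (0.71) or OE-CTD 3 (0.61) in turn. Gclm was at -0.31 and Gstm1, the most abundant, at 0.33. Of Atf4 and unfolded protein response genes, 1 of 18 tested genes was higher and 0 lower (median log2 fold change 0.26), the gene being the chaperone Pdia4 (log2 fold change 0.63 ± 0.148 (SE), edgeR adjusted p = 0.0358), which was lost without any 1 of the 7 libraries (0.58 to 0.68). Atf5 had an edgeR adjusted p of 0.0136 below the limit (0.50), and Chac1 was the most abundant (93.2 FPKM). Heat shock, interferon and MHC lists had 0 of 16, 0 of 18 and 0 of 13 altered by edgeR, DESeq2 or limma, with 0, 0 and 1 higher at an unadjusted p (medians 0.11, 0.02 and 0.03, the last 0.39 without CT-CTD 1). Bag3 (0.45) and Hspe1 (-0.13) had the smallest p of the heat shock list in each direction, Ifi44 (0.84, but 1.96 without CT-CTD 2) and Ifit1 (-0.91) of the interferon list, and H2-Eb1 (1.78) of the MHC list.

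The lists of blood and nerve markers held no altered gene. Igha and Cd27, which were lower as given above, were not in these lists. Of 4 tested erythroid and 10 Schwann cell markers 0 were altered by edgeR, DESeq2 or limma and 0 at an unadjusted p over 1.5-fold, and of 3 tested lymphocyte markers and the 1 tested neutrophil marker 0 as well (medians -0.03, 0.11, -0.18 and 0.61). These medians hung on single libraries, as the Schwann cell median was 0.54 without CT-CTD 1 and 0.32 without OE-CTD 4, the erythroid median -0.33 without OE-CTD 4, and the neutrophil value 0.97 without CT-CTD 1. Summed erythroid levels were 201, 277 and 191 CPM over CT-CTD 1 to 3 against 203, 125, 228 and 325 CPM over OE-CTD 1 to 4, and summed Schwann cell levels, which follow the nerve taken with the muscle, were 367, 125 and 270.3 CPM over CT-CTD 1 to 3 against 335, 318, 365 and 137 CPM over OE-CTD 1 to 4, with CT-CTD 2 and OE-CTD 4 low.

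The genotype effect on control diet was set beside that on western diet, which is estimated from other libraries and rests on the same doubt in the names. By the descriptions in the labels, all 4 OE-WD libraries share 1 number, so that it is not known whether they are separate animals. Log2 fold changes on western diet, OE-WD relative to CT-WD, were 0.93 for Fbn1, 0.76 for Col4a2, 0.66 for Egr3, 0.18 for Junb, 1.32 for Nr1d1, -0.90 for Odc1, -1.21 for Ucp3, -0.53 for Zbtb16, -1.38 for Spns2 and 0.17 for Acsl3. The difference between the diets was tested as an interaction, and 0 genes differed at an adjusted p under 0.05 by edgeR's quasi-likelihood test with Benjamini-Hochberg adjustment (smallest 0.675), with 417 genes at an unadjusted p under 0.05 and over 1.5-fold. Without a filter on low counts edgeR gave 29 genes, among them Acsl3, Mylk4, Junb, Egr3 and Apold1. DESeq2 gave 9 genes, among them Acsl3 and Mylk4. Without CT-WD 1 edgeR gave 1 gene, Cnksr3, which was named after its value was seen, and without CT-WD 2 it gave 1, Acsl3.

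Promoters of altered genes were searched for the E-box CACGTG, the sequence c-Myc with Max binds. Promoter sequences were those of RefSeq on GRCm38.p6, 250 bases before to 50 bases after each gene's start. Of 27025 promoters 2187 (8.09%) held CACGTG, and of 11033 genes tested that had a promoter sequence 1272 (11.5%) did. Only 207 of the 295 altered genes (70.2%) had a promoter sequence, so that the share of altered genes with the motif (22 of 207, 10.6%) is void as a check, since fewer than 80% of them could be searched. CACGTG is also bound by clock and other factors, and a match is a description and not a site. The Ciart promoter, of a clock gene that rose (1.42), held 3 matches (chr3:95882179-95882478, minus strand). Ciart was lost without CT-CTD 1 (1.22), CT-CTD 2 (1.26), OE-CTD 1 (1.499), OE-CTD 2 (1.36) or OE-CTD 3 (1.40) and Fkbp5 without CT-CTD 3 (-1.65). The promoter of Fkbp5, which fell (-2.29), held 1 (chr17:28486100-28486399, minus strand), shown 5′ to 3′ with the motif in capitals.
Ciart: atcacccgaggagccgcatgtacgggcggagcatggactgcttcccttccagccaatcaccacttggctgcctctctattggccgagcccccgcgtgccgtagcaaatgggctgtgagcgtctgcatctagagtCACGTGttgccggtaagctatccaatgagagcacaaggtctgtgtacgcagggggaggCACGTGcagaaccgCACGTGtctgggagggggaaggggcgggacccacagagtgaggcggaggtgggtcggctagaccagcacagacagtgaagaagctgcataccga
Fkbp5: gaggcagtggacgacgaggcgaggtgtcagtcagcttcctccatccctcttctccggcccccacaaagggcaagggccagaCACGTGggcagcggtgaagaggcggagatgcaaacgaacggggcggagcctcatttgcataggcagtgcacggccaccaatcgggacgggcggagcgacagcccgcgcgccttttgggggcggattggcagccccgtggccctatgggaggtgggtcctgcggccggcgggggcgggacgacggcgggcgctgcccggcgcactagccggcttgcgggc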

How the data were processed

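Tests used the counts deposited by the authors. Comparisons between genes and limma used the FPKM deposited by the authors. By the submitters' processing notes, reads were aligned to mm10 with HISAT2 2.0.5 and counted with featureCounts 1.5.0-p3. The strand setting and the annotation release were not given in the sources used here, and reads were not analysed here. Of the per-sample columns 0 were not mapped to a sample.

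Analysis used R 4.3.3 with edgeR 4.0.16 (TMM scaling, filterByExpr, quasi-likelihood test), DESeq2 1.42.0 and limma 3.58.1. A single model of 4 groups (genotype by diet) was fitted to all 14 libraries, and p was adjusted by Benjamini-Hochberg. Log2 CPM had a prior count of 2. Leaving out each library refitted the model on the rest. Biological spread (BCV) was 17.0%. Scripts were tested on simulated data. A replicate is a library, and labels do not say whether each came from its own animal. No pair of libraries in a group differed by less than sampling noise.

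Genes are named if they are among the 12 largest changes in each direction averaging 1 CPM or more and separated by group, or as the members of a list that passed the test, had the smallest p in a direction or were the most abundant, or if they are Myc or named in the study. Other genes, such as Axl and Tm4sf1, are to be taken as named after their values were seen, also where this is not said. Lists and their members were chosen with earlier results of these data known. Alternatives were DESeq2, RLE scaling, library totals, other filters, the 7 control diet libraries alone, the replicate block, limma with 2 offsets, leaving out each library, and exchanged group names. Near copies of transcripts were searched with blastn in GENCODE M21, and promoters were those of RefSeq on GRCm38.p6.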

Additional observations from a re-analysis of the deposited data

Results flagged for a closer look

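The 4 OE-CTD values of 205 genes, 72 lists and 5 library measures, 282 sets in all, were looked at for a value far from the other 3 (gap over range, Dixon's test). The 3 libraries of CT-CTD were too few for it. Of the 16 values set apart, 14 were in OE-CTD 4. Chance sets apart about 1 in 20 groups, which would be 14.1 of 282 if the sets were independent, which they are not. Genes highest in OE-CTD 4 were Abcc9 312 CPM (others 204 to 220.0), Eef1a2 2701 CPM (others 1936 to 2046), Mstn 77.4 CPM (others 59.5 to 62.2), Myh4 56750.1 CPM (others 38331 to 40776) and Pygm 9203 CPM (others 7306 to 7314). Genes lowest in OE-CTD 4 were Sparc 309 CPM (others 434 to 451) and Tmsb10 15.5 CPM (others 15.9 to 16). Summed lists highest in OE-CTD 4 were fast fibre 162997 CPM (others 120185 to 124566), aminoacyl-tRNA synthetases 1603 CPM (others 1385 to 1409.6), translation factors 8587 CPM (others 6909.9 to 7149), glycogen 15824 CPM (others 13116 to 13304), calcium handling 54298 CPM (others 41492 to 42656) and sarcomere 58799 CPM (others 41641 to 42528), and the lowest was leukocyte adhesion and chemokines 70.2 CPM (others 82.5 to 84.2). In other libraries the lowest values were Tars 45.2 CPM (others 50.6 to 50.9) in OE-CTD 1 and Tbc1d1 65.0 CPM (others 71.8 to 73.0) in OE-CTD 2.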

How the results depend on the processing

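The number of genes altered at an adjusted p under 0.05 and over 1.5-fold, 295 by edgeR with TMM scaling, was 504 by DESeq2, 157 with library totals only, 570 without a filter on low counts, 108 by limma on log2(FPKM + 1) and 0 with the names of OE-CTD and CT on western diet exchanged. With RLE scaling it was 296, with a filter of at least 1 CPM 275, with only the 7 control diet libraries 437 and with the replicate block 388. It ran from 64 without CT-CTD 3 to 309 without OE-CTD 4. At an unadjusted p, 1101 genes by edgeR became 375 by limma and 471 with exchanged names. The interaction with diet held 0 genes by edgeR, 9 by DESeq2, 29 without a filter, 0 with the replicate block and 0 to 1 with 1 library left out. Libraries of the same replicate number had correlations of residuals of -0.122 to 0.0465 between CT-CTD and OE-CTD (other pairs -0.276 to 0.205), 0.123 to 0.385 between CT-CTD and CT-WD (others -0.296 to 0.142) and 0.0711 to 0.338 between OE-CTD and OE-WD (others -0.239 to 0.116), and what the number marks is not known. The direction of 92 altered genes named here held in all settings that kept the names. With names exchanged, 17 of them took the opposite sign: Slc16a3 0.020, Timp4 0.062, Rabif 0.10, Fkbp5 0.13, Myod1 0.13, Slc16a9 0.16, Ucp3 0.37, Fbxo32 0.52 and Zbtb16 0.74 among genes that fell, and Ciart -0.56, Nr1d1 -0.27, Col18a1 -0.16, Slc16a6 -0.13, Esrrb -0.049, Fbln7 -0.021, Lamb1 -0.019 and Col15a1 -0.014 among genes that rose. Genes that were not altered took the opposite sign with names exchanged at Lep -1.47, Angptl2 -0.31, Myh7 -0.24, Casq2 -0.16, Myh2 -0.087, Lamb2 -0.069, Cspg4 -0.063, Heyl -0.058, Acads -0.048, Chodl -0.046, Decr1 -0.036, Hes1 -0.015, Mga 0.010, Myh4 0.022, Mrps14 0.062, Pgk1 0.063, Npm1 0.10, Col4a3 0.10, Fgf1 0.13, Sirt1 0.13, Pygm 0.14, Eif4ebp1 0.16, Sox18 0.18, Hspe1 0.18, Musk 0.19, Jun 0.26, Gapdh 0.29, S100a14 0.34, Notch4 0.35, Plin4 0.44, Myf6 0.45, Edn1 0.53, Wnt10a 0.71, Angptl4 0.74, Foxo1 0.90 and Trim63 1.30. With the replicate block these were Angptl4 0.12 and S100a14 0.35, and with limma on log2(FPKM + 0.1) S100a14 0.061. With 1 library left out, ranges were Angptl4 -0.20 to 0.16 (opposite without CT-CTD 1, CT-CTD 2 and OE-CTD 4), Arntl -0.012 to 0.29 (opposite without CT-CTD 3), Rrad -0.26 to 1.21 (opposite without CT-CTD 1) and S100a14 -0.78 to 1.85 (opposite without CT-CTD 1 and OE-CTD 4). To the first 66 gene lists 6 were added after the results of those had been seen. Each group has 3 or 4 libraries, and the cause of these differences was not tested.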

Other observations

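The groups below were put together after the values of these libraries had been seen. The 66 other lists were chosen with earlier results of these data known, and all are described only. Of 15 tested genes of microfibrils and elastic fibres, 7 were higher and 0 lower (median log2 fold change 0.74), namely Fbn1, Ltbp4 (0.74), Mfap5, Fbln5 (0.70), Fbln7 (1.10), Emilin2 (1.32) and Mfap4, and with 1 library left out the count was 4, 2 and 1 without CT-CTD 1, 2 and 3 and 4, 2, 2 and 7 without OE-CTD 1, 2, 3 and 4. Ltbp4 was lost without CT-CTD 3 (0.72), Fbln5 without CT-CTD 1 (0.66), CT-CTD 2 (0.66), CT-CTD 3 (0.78), OE-CTD 2 (0.61) or OE-CTD 3 (0.69) and Fbln7 without CT-CTD 2 (1.03), CT-CTD 3 (1.11), OE-CTD 1 (1.05), OE-CTD 2 (0.99) or OE-CTD 3 (1.14). Emilin2 was lost without any 1 of the 7 libraries (1.19 to 1.46), Mfap4 without CT-CTD 1 (1.87), CT-CTD 2 (1.698), CT-CTD 3 (1.61), OE-CTD 1 (1.71), OE-CTD 2 (1.62) or OE-CTD 3 (1.67) and Mfap5 without CT-CTD 2 (0.69), CT-CTD 3 (0.81), OE-CTD 2 (0.72) or OE-CTD 3 (0.67). Of 4 tested collagen VI chains, which form the beaded filaments around fibres, Col6a1 (log2 fold change 1.29 ± 0.252 (SE), edgeR adjusted p = 0.0160) and Col6a2 (log2 fold change 1.36 ± 0.257 (SE), edgeR adjusted p = 0.0137) were higher, and the count was 2, 1 and 0 without CT-CTD 1, 2 and 3 and 2, 1, 2 and 2 without OE-CTD 1, 2, 3 and 4. Col6a1 was lost without CT-CTD 2 (1.35), CT-CTD 3 (1.16) or OE-CTD 2 (1.24) and Col6a2 without CT-CTD 3 (1.25). Of 28 genes of the non-muscle actin cytoskeleton, 10 were higher and 0 lower (median 0.50), among them Tpm4 (0.80), Cotl1 (1.15), Tmsb10 (0.70) and Lcp1 (1.54), a leukocyte plastin, with a count of 4, 2 and 0 without CT-CTD 1, 2 and 3 and 6, 1, 1 and 10 without OE-CTD 1, 2, 3 and 4. Tpm4 was lost without CT-CTD 3 (0.77), Cotl1 without CT-CTD 2 (1.21), CT-CTD 3 (1.03), OE-CTD 2 (1.06) or OE-CTD 3 (1.12) and Tmsb10 without CT-CTD 1 (0.65), CT-CTD 3 (0.62), OE-CTD 2 (0.69) or OE-CTD 3 (0.69). Lcp1 was lost without CT-CTD 1 (1.65), CT-CTD 2 (1.601), CT-CTD 3 (1.39), OE-CTD 1 (1.58), OE-CTD 2 (1.54) or OE-CTD 3 (1.42). Tmsb10 has near-identical copies in the genome. Of 10 annexins, Anxa5 (log2 fold change 0.99 ± 0.142 (SE), edgeR adjusted p = 0.00575) and Anxa2 (0.93) were higher and Anxa7 (-0.65) lower, with a count in both directions of 4, 1 and 1 without CT-CTD 1, 2 and 3 and 2, 2, 2 and 4 without OE-CTD 1, 2, 3 and 4. Anxa2 was lost without CT-CTD 2 (0.90) or CT-CTD 3 (0.87) and Anxa7 without CT-CTD 2 (-0.66), CT-CTD 3 (-0.48), OE-CTD 1 (-0.67), OE-CTD 2 (-0.64) or OE-CTD 3 (-0.64). The part of fibroblast and leukocyte content in these groups was not tested.

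Of 12 tested Slc16 genes, which encode transporters of lactate and other small molecules, 3 were higher and 2 lower (count in both directions 3, 1 and 1 without CT-CTD 1, 2 and 3 and 2, 1, 2 and 3 without OE-CTD 1, 2, 3 and 4). The lactate exporter Slc16a3 (Mct4) fell (log2 fold change -0.65 ± 0.108 (SE), edgeR adjusted p = 0.00681), at 237, 312 and 333 CPM over CT-CTD 1 to 3 against 189, 191, 181 and 188 CPM over OE-CTD 1 to 4, and was lost without CT-CTD 3 (-0.55). Among the higher genes were Slc16a6 (0.71, in a stretch that overlaps the more abundant Amz2) and Slc16a13 (1.34), while Slc16a9 fell (-1.09). Slc16a6 was lost without CT-CTD 1 (0.70), CT-CTD 2 (0.76), CT-CTD 3 (0.68), OE-CTD 1 (0.76), OE-CTD 2 (0.72) or OE-CTD 3 (0.62). Slc16a13 was lost without any 1 of the 7 libraries (1.22 to 1.47) and Slc16a9 without CT-CTD 2 (-0.96) or OE-CTD 2 (-0.99). Of 16 polyamine genes 3 were lower, Odc1, the spermine oxidase Smox (log2 fold change -1.13 ± 0.224 (SE), edgeR adjusted p = 0.0166) and the transporter Atp13a5 (-1.42), and the count was 3, 1 and 1 without CT-CTD 1, 2 and 3 and 2, 1, 1 and 2 without OE-CTD 1, 2, 3 and 4. Smox was lost without CT-CTD 2 (-0.86), CT-CTD 3 (-1.11), OE-CTD 2 (-1.13) or OE-CTD 3 (-1.11) and Atp13a5 without CT-CTD 2 (-1.37), CT-CTD 3 (-0.91), OE-CTD 1 (-1.47), OE-CTD 2 (-1.35), OE-CTD 3 (-1.46) or OE-CTD 4 (-1.40). Axl, a receptor tyrosine kinase that clears dying cells and is found in vessels, rose (log2 fold change 0.91 ± 0.148 (SE), edgeR adjusted p = 0.00627), and so did the endothelial transmembrane gene Tm4sf1 (log2 fold change 0.69 ± 0.112 (SE), edgeR adjusted p = 0.00627), both in every fit without 1 library.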
